A study of Mus musculus with 12 samples.

Results

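The response described here is that of peritoneal macrophages, phagocytes of the abdominal cavity, to lipopolysaccharide (LPS), the glycolipid that coats Gram-negative bacteria. It was measured by RNA sequencing in 3 LPS libraries and 3 control libraries with the genotype label Lyz2Cre, which are 6 of the 12 libraries of a study on the transcription factor BHLHE40 in macrophage inflammation. The mice were C57BL/6 animals at postnatal week 10. Every library of the study, the controls included, carries Lyz2Cre, a Cre recombinase expressed from the lysozyme 2 locus and active in macrophages and other myeloid cells, and the other 6 libraries carry Lyz2Cre-BHLHE40-Fl in its place in the label. The LPS dose and its duration are not given here, and the controls are described only as control. All genes with a deposited value of at least 1 in 3 or more of the 6 libraries were taken, which left 17670 of 53465 genes. A deposited value is a gene's number of reads divided by 1 factor for its library. The labels do not say whether replicates came from separate animals or cultures, so each p-value reflects no more than the spread among these libraries, which may be technical.

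LPS is handed by CD14 to the receptor TLR4, which signals through MYD88 at the cell surface and through TRIF from endosomes. The MYD88 branch frees NF-kB from its inhibitors and raises cytokine and chemokine genes, while the TRIF branch raises interferon beta. Secreted interferon beta then acts back on the cell through its receptor and raises antiviral genes. Activated macrophages are also known for a changed metabolism, with production of nitric oxide from arginine, of itaconate from the citric acid cycle and of prostaglandins from arachidonic acid.

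The libraries held 24494178 to 29354869 reads assigned to genes. Genes above 0 numbered 18870 to 19799 in controls and 18049 to 18162 with LPS, and mitochondrial transcripts took 0.985% to 1.37% and 0.486% to 0.600% of reads. General macrophage markers were abundant, with a summed value over 10 genes of 124563 to 139114 in controls and 141478 to 148824 with LPS. Of these Adgre1 stood at a mean of 30456 in controls and 38486 with LPS, and Csf1r, the receptor gene for the macrophage growth factor, at 19473 and 12226. The 14 genes listed for large resident peritoneal macrophages summed to 29378 to 30811 in controls and 46470 to 48229 with LPS, mostly from F10 (means of 3805 and 32519), Cd93 (15707 and 5266) and Cd9 (9839 and 8861), whereas Gata6, the factor that defines these cells, stood at 24.7 and 20.1 and Timd4 at 5.3 and 57.4. The 10 genes listed for monocytes and small peritoneal macrophages summed to 37519 to 52318 in controls and 32278 to 41665 with LPS. Most of this was Fn1 (means of 39621 and 33001), with Mrc1 at 2483 and 2034, Ly6c2 at 1217 and 1425 and Ccr2 at 72.1 and 69.0. The 11 neutrophil genes summed to 23526 to 27989 and 14681 to 15015, nearly all of it Mmp8 at means of 24800 and 14408. In that list Mcemp1 stood at 636 and 272, Camp at 20.7 and 134, and Ly6g at 0 in all 6 libraries. Erythroid markers were also at 0, and the mesothelial list summed to 10.9 to 22.6 and 7.8 to 27.8. Fibroblast markers summed to 2243 to 2372 in controls and 3500 to 5152 with LPS, and 6 of the 7 tested were called higher (2 of 7 with equal library totals). Their part in the results below was not tested.

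The promoter sequences of 5 genes are shown because their groups carry the response. Cxcl10, Il6 and Gbp5 rose more than 200-fold, Ifit1 stands for the antiviral genes, and Mvd for cholesterol synthesis, most genes of which fell. Each sequence runs from 250 bases before to 50 bases after the RefSeq start of the gene (RefSeq, GRCm38.p6). Capitals mark a kappa B match (GGGANNTTCC) or an interferon-stimulated response element (ISRE) core (GAAANNGAAA) in Cxcl10, Il6, Gbp5 and Ifit1, and an NF-Y match (CCAAT) in Mvd, on either strand.
Cxcl10: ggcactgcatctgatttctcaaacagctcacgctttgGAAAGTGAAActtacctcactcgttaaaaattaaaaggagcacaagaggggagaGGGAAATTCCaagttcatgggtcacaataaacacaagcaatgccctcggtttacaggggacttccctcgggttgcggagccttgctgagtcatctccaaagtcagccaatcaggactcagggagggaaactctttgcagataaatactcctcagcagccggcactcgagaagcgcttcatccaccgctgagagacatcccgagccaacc
Il6: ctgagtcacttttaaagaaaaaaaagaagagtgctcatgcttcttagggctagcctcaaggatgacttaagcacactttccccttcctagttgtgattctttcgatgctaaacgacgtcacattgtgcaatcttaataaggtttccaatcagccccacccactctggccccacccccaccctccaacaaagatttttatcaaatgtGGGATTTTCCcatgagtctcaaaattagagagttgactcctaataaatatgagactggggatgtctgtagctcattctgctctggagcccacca
Gbp5: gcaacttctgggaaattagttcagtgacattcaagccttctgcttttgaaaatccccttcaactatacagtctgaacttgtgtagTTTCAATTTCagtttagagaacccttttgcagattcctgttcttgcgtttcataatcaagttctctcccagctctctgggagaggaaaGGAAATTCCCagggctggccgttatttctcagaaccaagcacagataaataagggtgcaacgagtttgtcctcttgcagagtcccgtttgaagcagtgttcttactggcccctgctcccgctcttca
Ifit1: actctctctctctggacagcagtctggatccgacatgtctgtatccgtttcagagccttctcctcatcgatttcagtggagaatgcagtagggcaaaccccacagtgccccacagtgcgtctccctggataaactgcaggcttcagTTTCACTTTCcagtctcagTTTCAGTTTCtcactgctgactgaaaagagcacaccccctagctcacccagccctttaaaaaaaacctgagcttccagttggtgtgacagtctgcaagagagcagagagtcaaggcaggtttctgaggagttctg
Mvd: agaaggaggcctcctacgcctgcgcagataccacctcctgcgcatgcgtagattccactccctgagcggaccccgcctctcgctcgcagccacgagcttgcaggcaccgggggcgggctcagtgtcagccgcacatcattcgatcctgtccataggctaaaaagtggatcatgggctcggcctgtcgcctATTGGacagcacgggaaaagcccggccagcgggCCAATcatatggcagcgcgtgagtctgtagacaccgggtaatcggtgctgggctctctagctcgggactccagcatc
The windows lie at chr5:92348840-92349139 on the minus strand for Cxcl10, chr5:30012864-30013163 on the plus strand for Il6 and chr3:142496684-142496983 on the plus strand for Gbp5. Those of Ifit1 and Mvd lie at chr19:34640639-34640938 on the plus strand and chr8:122443373-122443672 on the minus strand. The kappa B match began 159 bases before the start of Cxcl10, 44 before that of Il6 and 77 before that of Gbp5, and Ifit1 held 2 ISRE cores within 104 bases of its start.

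LPS raised 5146 of the 17670 genes (29.1%) and lowered 4881 (27.6%) at a limma Benjamini-Hochberg adjusted p below 0.05. The change was at least 2-fold on the log2(value + 1) scale for 2758 of the genes that rose and 2563 of those that fell, at least 16-fold for 282 and 50, and at least 64-fold for 80 and 0. With all libraries brought to equal totals these counts were 1589 and 5685, 194 and 125, and 57 and 2, so the excess of large rises was smaller. In bulk RNA, fewer cells of a type and less RNA per cell cannot be told apart. For 11011 genes (62.3%) the 3 LPS libraries and the 3 control libraries did not overlap, and the median SD between replicates on the log2 scale was 0.189 in controls and 0.156 with LPS. Called genes made up 22.3% of those with a mean value under 10, where the reads are few, and 79.7% of those at 1000 or more.

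The direction of small changes depended on how libraries were brought to one scale. Deposited values summed to 22693600 ± 92840 in controls and 37605600 ± 753417 with LPS (SD, n = 3), a ratio of 1.66, because a read was worth 0.770 to 0.837 in controls and 1.38 to 1.56 with LPS. The 20 genes with the greatest increase gave 26.0% of the net increase and the top 100 gave 52.9%. When all libraries were brought to equal totals, the median log2 change of all genes went from -0.00139 to -0.66, and 2423 genes (13.7%) were called higher and 9464 (53.6%) lower. Of all calls, 20.4% were then in the higher direction, where the deposited values had given 51.3%. Of the 5146 genes called higher as deposited, 2423 stayed higher with equal totals, 1639 lost the call and 1084 became lower. The median log2 change of those 1084 was 0.355. All 4881 lower genes stayed lower, and 3499 genes with no call became lower. A gene is therefore said to rise or fall below where it was called in that direction with both scalings, unless the sentence says otherwise. Counts for lists below are to be read beside the shares over all genes. These are 29.1% higher and 27.6% lower as deposited, and 13.7% and 53.6% with equal totals.

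**Figure D1:**
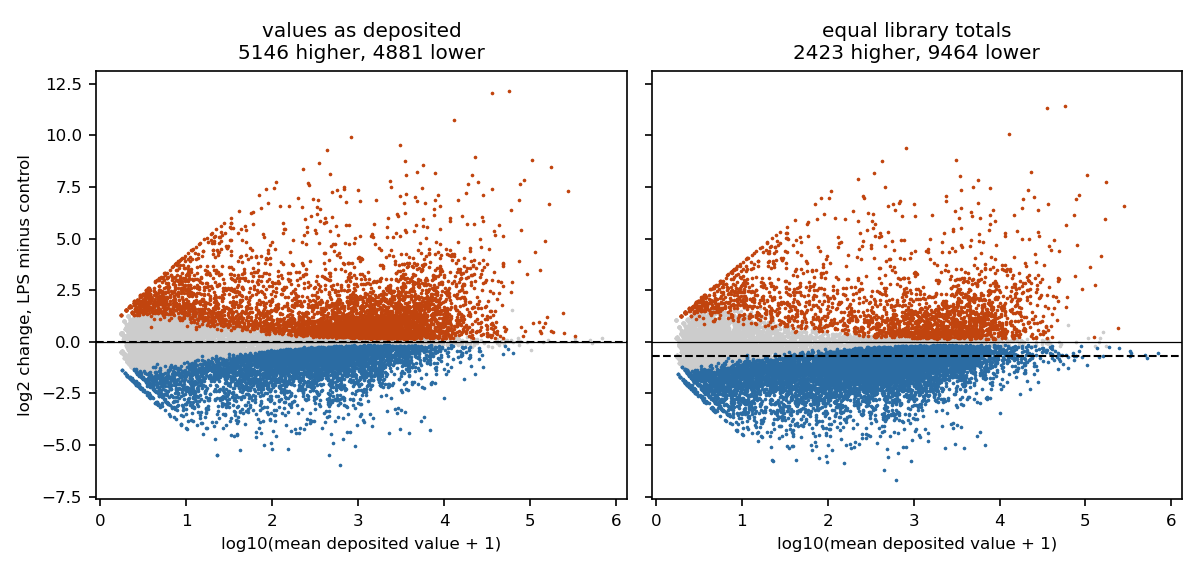
Log2 change of each of the 17670 genes (LPS minus control, y axis) against its mean deposited value + 1 (log10, x axis), with the values as deposited on the left and with equal library totals on the right. Orange points are genes called higher, blue points genes called lower and grey points genes with no call, and the dashed line is the median, which lies at -0.00139 on the left and -0.66 on the right.

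Several genes of LPS sensing rose by moderate factors. Cd14, the LPS co-receptor gene, stood at 9046, 7854 and 7982 in controls and 30532, 32381 and 32748 with LPS, a log2 change of 1.95 ± 0.08 (SE, limma adjusted p = 1.45e-12). Every LPS library lay above every control library. Myd88, the adaptor, stood at 1283, 1281 and 1036 in controls and 7398, 7298 and 7909 with LPS, a 6.28-fold rise. Tab2, which couples the kinase TAK1 to the pathway, rose 3.06-fold, the kinase gene Tbk1 of the TRIF branch 2.96-fold, and Map3k8, the kinase upstream of ERK, 4.21-fold. In the list of TLR4 and its adaptors 14 of the 23 tested members were called higher and 4 lower (median log2 change 0.62), which became 8 higher and 10 lower with equal totals. Several other Toll-like receptor genes rose as well. Tlr2, which senses bacterial lipopeptides, stood at 3608, 3691 and 4866 in controls and 37887, 38391 and 38539 with LPS, and Tlr3, which senses double-stranded RNA, at 397, 529 and 395 in controls and 8843, 9715 and 10147 with LPS. Tlr1 rose 5.57-fold, Tlr9 4.56-fold and Tlr11 18.5-fold, and 9 of 12 tested members of this list were called higher and 1 lower (7 and 3 with equal totals).

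NF-kB subunits and the inhibitors that the factor itself induces rose together. Of the 23 tested genes 22 were called higher and 0 lower (18 and 2 with equal totals), with a median log2 change of 2.11 against -0.00139 for all genes. Nfkbia, which encodes the inhibitor IkB alpha, stood at 1136, 1122 and 1209 in controls and 20138, 21571 and 22894 with LPS, a log2 change of 4.22 ± 0.10 (limma adjusted p = 9.91e-16). Nfkbiz, an inhibitor-like cofactor gene, rose 22.4-fold, Nfkbie 17.1-fold, the subunit gene Nfkb2 17.8-fold, Traf1 28.5-fold and the deubiquitinase gene Tnfaip3 10.1-fold. The control and LPS libraries of each of these genes were far apart relative to the spread between replicates.

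The feedback genes of cytokine signalling and mRNA decay moved both ways. Socs3, an inhibitor of cytokine receptors, stood at 1052, 1003 and 946 in controls and 25644, 30229 and 28703 with LPS, and Socs1, which inhibits interferon signalling, at 68.5, 58.4 and 44.4 in controls and 3033, 3080 and 2959.7 with LPS. These were rises of 28.2-fold and 53.0-fold. The RNase genes Zc3h12a and Zc3h12c rose 6.36-fold and 7.1-fold. Zfp36l1, which encodes an mRNA-decay protein, instead fell 13.9-fold, from 577, 560.1 and 489 to 30.6, 55.2 and 31.1, and the translation inhibitor gene Pdcd4 fell 7.64-fold. In all 12 of the 18 tested members were called higher and 3 lower, and 7 and 7 with equal totals. Among the MAP kinase phosphatases Dusp2 rose 6.42-fold, Dusp4 4.6-fold, Dusp16 3.79-fold and Dusp5 3.45-fold, whereas Dusp3 fell 3.85-fold (7 of 11 higher and 2 lower, 4 and 5 with equal totals).

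Members of the AP-1 family parted. Jun stood at 3547, 3959.7 and 3424 in controls and 949, 841 and 888 with LPS, a fall of 4.08-fold, while Junb stood at 2059, 2041 and 1594 in controls and 17123, 18472 and 17758 with LPS, a rise of 9.37-fold. The groups did not overlap for either gene. The small Maf genes Maff and Mafk rose 6.43-fold and 7.66-fold. Nr4a3, an orphan nuclear receptor gene, rose 17.7-fold, and Egr1, an immediate early gene, rose 4.19-fold at low values. In the list of immediate early transcription factors 15 of 26 were called higher and 6 lower (11 and 7 with equal totals).

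All 23 tested proinflammatory cytokine genes were called higher with the deposited values and 22 with equal totals, with a median log2 change of 5.96. Tnf, the gene of tumour necrosis factor, stood at 681, 822 and 723 in controls and 163714, 171322 and 173576 with LPS. This was a 229-fold rise and a log2 change of 7.84 ± 0.07 (limma adjusted p = 4.57e-20), with replicates that lay close together in both groups. Il27, whose product pairs with EBI3 to form interleukin 27, stood at 12.3, 20.3 and 10.9 in controls and 21395, 28440 and 28322 with LPS. Il12a, the p35 subunit gene of interleukin 12, stood at 27.7, 21.9 and 41.9 in controls and 10710, 11451 and 11744 with LPS. For both genes each LPS library lay more than 100-fold above each control. Ifnb1, the interferon beta gene, stood at 0, 3.2 and 0 in controls and 413, 895 and 769.9 with LPS, so that control reads came from replicate 2 alone. Edn1, the gene of the vasoconstrictor endothelin 1, rose 787-fold, and Tnfsf15, a TNF-family ligand gene, 308-fold. Il22 was at 0 in the 3 controls and at 80.6, 73.1 and 88.7 with LPS, at least 100.25-fold higher against a floor of 3 reads over the control group. Angpt1, an angiopoietin gene, stood at 0.8, 1.6 and 6.7 in controls and 866, 899 and 1020.3 with LPS, and Dll1, a Notch ligand gene, at 1.5, 0 and 0 in controls and 428, 418 and 502 with LPS. Dll1 rested on 2 control reads, which gave a ratio of 834 (95% counting interval 230.1 to 6894).

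Chemokine genes had 19 of 24 tested members called higher and 2 lower (17 and 4 with equal totals), with a median log2 change of 4.57. Cxcl2, a neutrophil attractant, stood at 234, 229 and 229.5 in controls and 45012, 50921 and 52510 with LPS, a log2 change of 7.74 ± 0.07 (limma adjusted p = 4.57e-20). The controls were nearly equal and the LPS libraries all lay far above them. Cxcl1, with the same role, rose 129.6-fold, and Ccl7, a monocyte attractant, 113-fold. The interferon-inducible T cell attractants Cxcl9 and Cxcl11 stood at 19.2, 17.8 and 24.3 in controls and 4389.5, 4875 and 4881 with LPS and at 0, 0 and 1.7 in controls and 703, 981 and 909.8 with LPS. For Cxcl11 the 2 control reads gave a ratio of 1608 (95% counting interval 445 to 13292).

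**Figure D2:**
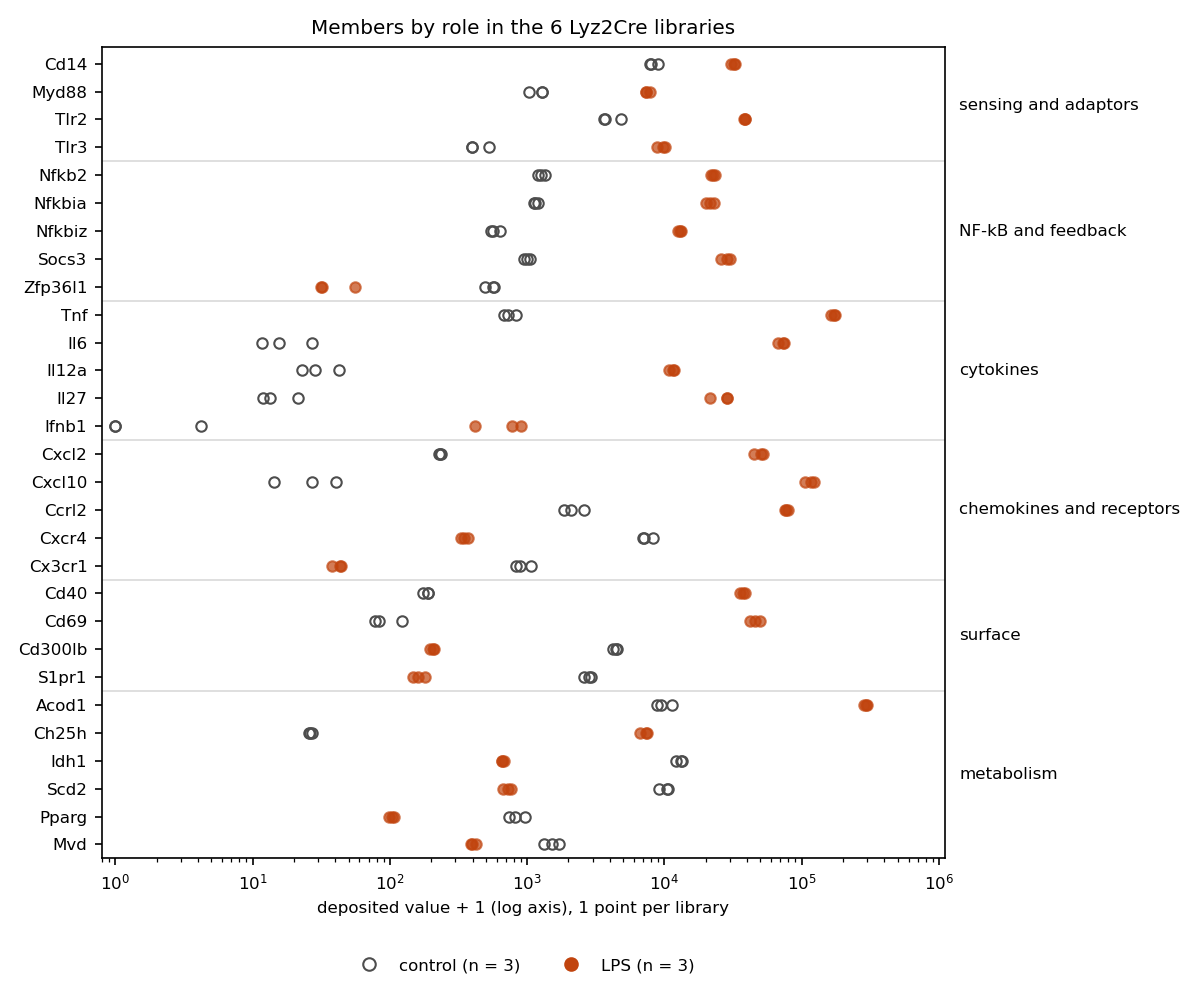
Deposited value + 1 (log x axis) of 29 genes grouped by role in the 6 Lyz2Cre libraries, with 1 point per library, open circles for controls (n = 3) and filled orange circles for LPS (n = 3). The groups do not overlap for any gene shown, for example Tnf at 681 to 822 in controls and 163714 to 173576 with LPS, and Cxcr4 at 7025 to 8259 and 327 to 371. Over all genes 62.3% do not overlap, and some of the genes shown were named on condition that they did not.

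The interferon arm was broad. Of 42 antiviral interferon-stimulated genes tested 40 were called higher and 0 lower (38 and 2 with equal totals), with a median log2 change of 3.62. Rsad2, which encodes viperin, stood at 3463, 6868 and 1768 in controls and 544893, 570006 and 551511 with LPS. Cmpk2, its genomic neighbour and a nucleotide kinase gene, stood at 1001, 2129 and 464 in controls and 344631, 358342 and 341361 with LPS. Both control groups were widely spread, with replicate 2 highest and replicate 3 lowest, while the LPS libraries were close. Mx1, a dynamin-like antiviral GTPase gene, stood at 447, 1135 and 147 in controls and 69599, 74514 and 71761 with LPS, and Ifit1, which binds foreign RNA, at 1207, 3002 and 531 in controls and 145441, 152468 and 142540 with LPS. Ifit1bl1, a near copy in the same cluster whose reads may be shared with its neighbours, stood at 8.5, 44.6 and 8.4 in controls and 5608, 8055 and 7219.7 with LPS.

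That order of the controls held for most of the list. Replicate 2 was the highest control for 40 of the 42 genes and replicate 3 the lowest for 41. The median of the 42 genes was 1688, 2380 and 814 in controls 1 to 3 and 16045, 16008 and 17121 with LPS. Without control replicate 2 the median log2 change was 3.92 and without control replicate 3 it was 3.33, and 40 genes were called higher in either case. The median SD between replicates of these 42 genes on the log2 scale was 0.780 in controls and 0.073 with LPS. The fit uses 1 variance for all 4 groups, so its errors do not measure the spread of these controls alone. This limits the error of Ifit2, whose log2 change was 6.68 ± 0.44.

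**Figure D3:**
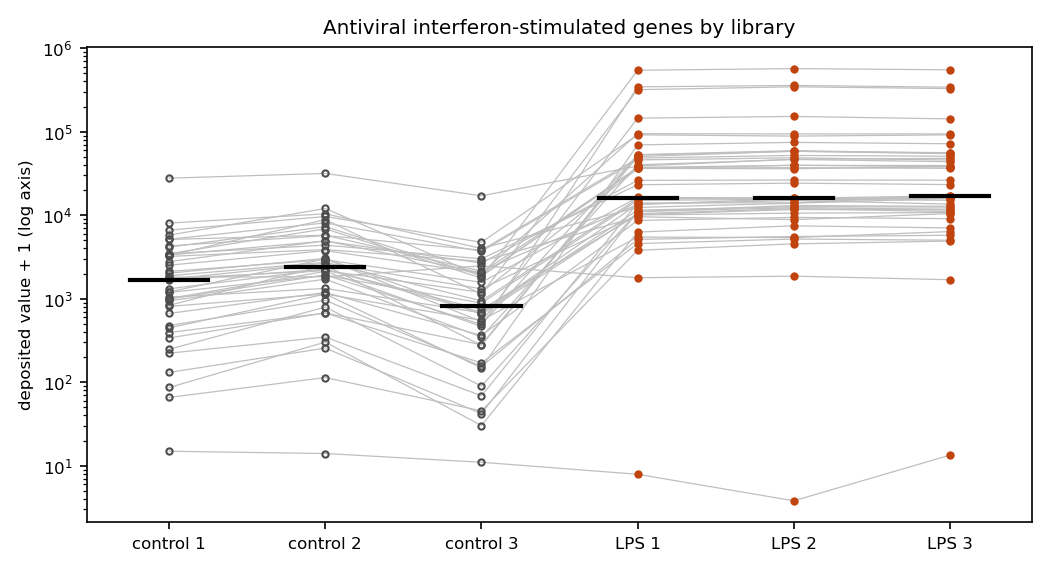
Deposited value + 1 (log y axis) of the 42 antiviral interferon-stimulated genes in each Lyz2Cre library (x axis), with 1 point per gene, grey lines joining a gene's points and black bars at the library medians. The bars stand at 1688, 2380 and 814 in the controls and at 16045, 16008 and 17121 with LPS, and the controls differ among themselves more than the LPS libraries do.

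Interferon-inducible GTPases, which attack the vacuoles of intracellular pathogens, were called higher in 17 of 17 members with either scaling (median log2 change 5.28). Gbp5 stood at 153, 246 and 98.8 in controls and 40902, 40134 and 45636 with LPS, a 254-fold rise. Iigp1 rose 142-fold, Gbp4 112-fold, Gbp2 42.0-fold and Irgm1 12.9-fold. Tgtp1 and Tgtp2 rose 177-fold and 38.1-fold, but these genes are near copies and the split of their reads is uncertain. Gbp10 rested on 2 control reads (ratio 207, 95% counting interval 56.7 to 1720). The regulators rose too, with 14 of 18 IRF and STAT genes called higher and 0 lower (12 and 4 with equal totals). Irf1 stood at 3263, 3486 and 3383 in controls and 47448, 49412 and 47503 with LPS. Stat2 rose 5.55-fold, Stat3 4.48-fold and the kinase gene Jak2 15.7-fold. Irf7, the amplifier of the interferon response, stood at 8054, 14704 and 2388 in controls and 46879, 55613 and 55112 with LPS, again with control 3 lowest.

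Genes that rose at least 4-fold lay side by side on several chromosomes. Among 13562 tested protein-coding genes, of which 1013 rose and 637 fell at least 4-fold as deposited, 16 runs of 4 or more neighbours rose, holding 91 genes, and 1 run fell. The longest covered 10 genes from Irgm1 to Ifi47 at chr11:48861968-49135387 (mm10), the GTPase cluster with Tgtp1 and Tgtp2. A run of 6 genes from Aim2 to Ifi208 lay at chr1:173350879-173698395. It holds part of the Ifi200 family, whose members include sensors of DNA. Ifi205 of that family stood at 338, 675 and 281 in controls and 53097, 59380 and 55123 with LPS. Other runs were the 7 Schlafen genes from Slfn5 to Slfn3 at chr11:82951349-83215154, the 6 genes with Sp110, Sp140 and Sp100 at chr1:84992690-85778643, and the 6 genes with Phf11a to Phf11d at chr14:59244441-59440884. Families of near copies can share reads, so single members of these runs are uncertain.

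Motif letters in the promoter windows differed between the groups of genes, given as a description with no test. Matches were sought on both strands and counted even where they overlapped, and a match is not evidence of binding. The kappa B letters GGGANNTTCC stood in 1.47% of all 32851 windows of 27025 genes, in 1.55% of the 14330 windows of genes tested, in 7.76% of the windows of genes that rose at least 16-fold as deposited (189 of 282 genes matched) and in 1.34% of those of genes that fell at least 4-fold (553 of 823 matched). The ISRE core GAAANNGAAA stood in 3.44%, 3.31%, 17.7% and 1.74% of the same sets of windows. It stood in 9 of the 9 GTPase genes with a window, of 17 in that list, and in 15 of the 36 windows of antiviral genes. The AP-1 letters TGACTCA or TGAGTCA stood in 5.20% of all windows, 4.01% of those of genes tested and 11.2% of those of genes that rose. The E-box CACGTG stood in 7.15% of all windows and 9.57% of those of genes tested, with 2.59% for genes that rose and 10.3% for genes that fell, the last being close to the share among genes tested. The CCAAT letters of NF-Y stood in 37.4% of all windows, 37.2% of those of genes tested and 16 of the 20 windows of cholesterol synthesis genes. They were also frequent in the circadian clock list (16 of 21 windows) and the cell cycle list (21 of 32). The sterol element TCACNCCAC stood in 1 of the 20 cholesterol windows. The D-box TTACNTAA or TTATNTAA stood in 4.76% of all windows, 2.76% of those of genes tested and 7.76% of those of genes that rose. The interferon gamma activated sequence (GAS), TTCNNNGAA, stood in 8.30% of all windows, 6.83% of those of genes tested and 12.5% of those of genes that rose.

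**Figure D4:**
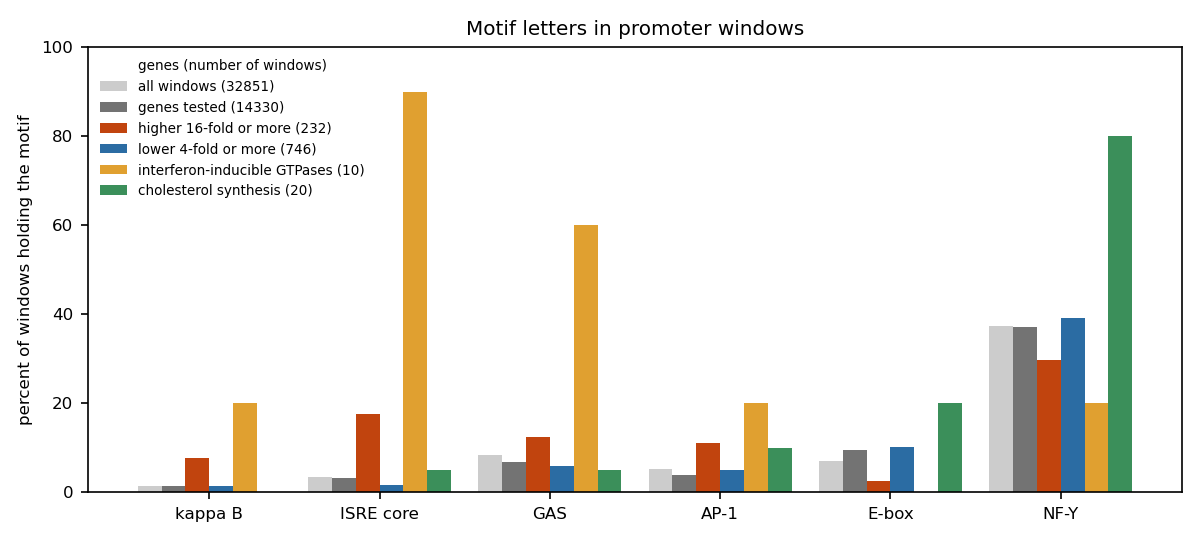
Percent of promoter windows of 300 bases that hold the letters of each of 6 motifs (y axis) for all windows in the table (light grey, 32851), genes tested (dark grey, 14330), genes that rose at least 16-fold (orange, 232), genes that fell at least 4-fold (blue, 746), interferon-inducible GTPases (yellow, 10) and cholesterol synthesis genes (green, 20). The ISRE core is at 3.44% of all windows and 17.7% of those of genes that rose, and NF-Y is at 37.4% of all windows and 80% of those of cholesterol synthesis genes. In the circadian clock and cell cycle lists, not drawn, NF-Y is at 76.2% and 65.6% of windows.

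Surface molecules for contact with T cells rose. Of 18 tested costimulatory and activation molecules 17 were called higher and 0 lower (16 and 0 with equal totals), with a median log2 change of 3.21. Cd40, the receptor for T cell help, stood at 173, 188 and 188 in controls and 35526, 38634 and 37663 with LPS, a log2 change of 7.66 ± 0.10 (limma adjusted p = 2.24e-18). Cd69, an early activation marker that retains cells in tissue, stood at 82.4, 122 and 77 in controls and 42044, 49278 and 45925 with LPS. All LPS libraries of both genes exceeded their controls more than 100-fold. Cd86 rose 17.7-fold, the adhesion molecule gene Vcam1 69.9-fold, Slamf1 36.0-fold and the ligand gene Tnfsf4, from near 0 in controls, 322-fold.

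MHC class I genes had 20 of 23 tested members called higher and 2 lower (16 and 4 with equal totals). The peptide transporter gene Tap1 rose 9.41-fold, the transactivator gene Nlrc5 9.54-fold, the immunoproteasome subunit gene Psmb10 6.24-fold and the nonclassical gene H2-Q4, one of a family of near copies, 5.89-fold. B2m, the light chain, stood at 155124, 148542 and 163876 in controls and 196492, 227849 and 222020 with LPS, a log2 change of 0.47 ± 0.11 (limma adjusted p = 0.00185) that became -0.26 with equal totals, where it was called lower. The constitutive proteasome core had 16 of 20 called higher and 1 lower as deposited but 7 and 10 with equal totals. MHC class II genes had 8 of 12 called higher and 4 lower as deposited, and 1 and 5 with equal totals. Their transactivator gene Ciita fell 1.6-fold, from 290.2, 355 and 276 to 195, 199 and 182, and H2-Oa, an accessory gene at low values, rose 8.55-fold.

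Arginine and nitric oxide genes were reordered. Nos2, the inducible nitric oxide synthase, stood at 713, 824 and 794 in controls and 155110, 143292 and 159928 with LPS. Arg1, the arginase that uses the same substrate, fell 3.55-fold, from 24540, 23216 and 32146 to 7669, 8279 and 6571. Slc7a2, which imports arginine, rose 9.69-fold and Gch1, which makes the cofactor of nitric oxide synthase, 7.79-fold. Srm, a polyamine synthase gene downstream of arginase, fell 3.36-fold. In the list 10 of 16 were called higher and 4 lower (6 and 6 with equal totals).

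Among genes around the citric acid cycle Acod1 rose and Idh1 fell. Acod1, whose enzyme makes itaconate, stood at 8869, 9513 and 11316 in controls and 291908, 297188 and 286229 with LPS. Idh1, the cytosolic isocitrate dehydrogenase, stood at 13363, 12147 and 13226 in controls and 655, 651 and 675 with LPS, a fall of 19.6-fold and a log2 change of -4.29 ± 0.07 (limma adjusted p = 5.28e-17). The replicates of Idh1 lay close together in each group. Aco1 and Suclg2 fell 2.2-fold and 2.26-fold, and 3 of the 23 tested members were called higher and 11 lower (1 and 21 with equal totals). Among NAD and kynurenine genes Nampt, the rate-limiting enzyme of NAD salvage, rose 5.17-fold, Kynu 7.7-fold, Kmo 9.27-fold and the NAD-consuming Cd38 5.51-fold (10 of 16 higher and 4 lower, 6 and 6 with equal totals).

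Glycolysis did not move as a block. Hk2 and Hk3, which trap glucose, rose 3.11-fold and 3.17-fold, Pfkp 2.87-fold and the activator gene Pfkfb3 2.9-fold, whereas Pfkfb4 fell 3.23-fold. As deposited 10 of 22 were called higher and 6 lower, and with equal totals 5 and 12. Targets of the hypoxia factor HIF-1 outside glycolysis were 9 higher and 8 lower of 20 (4 and 15 with equal totals), with P4ha1, a collagen hydroxylase gene, 2.9-fold higher and Egln3, which encodes an oxygen-sensing hydroxylase, 4.35-fold lower. Car9, a carbonic anhydrase gene often used as a hypoxia marker, fell 2.55-fold. The pentose phosphate pathway had 1 of 9 higher and 5 lower (1 and 8 with equal totals).

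The inducible prostaglandin synthesis genes Ptgs2 and Ptges rose. Ptgs2, which encodes the inducible cyclooxygenase, stood at 404, 430.4 and 559 in controls and 187266, 219283 and 222311 with LPS and Ptges, the inducible prostaglandin E synthase, at 759, 696 and 629 in controls and 35308, 36174 and 36151 with LPS. Alox5, the entry enzyme of leukotriene synthesis, fell 3.5-fold. The genes of prostaglandin E2 receptors Ptger4 and Ptger2 also fell, Ptger4 7.19-fold from 922, 957 and 1011 to 135, 137 and 131, and Ptger2 3.84-fold. Of the 20 genes listed 19 were tested, and 7 were called higher and 11 lower (3 and 12 with equal totals).

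Most tested genes of cholesterol and fatty acid synthesis fell. Ch25h, whose product 25-hydroxycholesterol blocks viral entry and sterol synthesis, stood at 24.6, 25.9 and 25.1 in controls and 6663, 7280.1 and 7509 with LPS, a 284-fold rise. Cholesterol synthesis had 18 of 25 tested members called lower and 3 higher (23 and 0 with equal totals), with a median log2 change of -0.82. Mvd stood at 1699.8, 1332 and 1520 in controls and 421, 393 and 392 with LPS, the rate-limiting squalene epoxidase gene Sqle fell 3.16-fold and Acat2 3.93-fold. None of the LPS libraries of these 3 genes reached the lowest control. Fatty acid synthesis had 10 of 17 called lower and 4 higher (13 and 1 with equal totals). Scd2, a desaturase, fell 14.1-fold, from 10680, 9200.2 and 10507 to 766, 672 and 722, and Elovl6 8.08-fold, Fasn 4.62-fold and Fads1 4.36-fold. Acsl1, which activates fatty acids, rose 7.56-fold. Among lipid handling genes Pparg, a nuclear receptor for fatty acids, stood at 739, 817 and 957 in controls and 97.3, 103 and 106 with LPS, and its target Fabp4 fell 2.58-fold. That list, with targets of the sterol receptor LXR, had 7 of 20 higher and 10 lower (2 and 15 with equal totals).

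Oxidative stress and metal genes gave mixed counts. NRF2 and antioxidant genes had 9 of 22 called higher and 5 lower as deposited but 6 and 11 with equal totals. The cystine importer gene Slc7a11 rose 8.14-fold and the mitochondrial superoxide dismutase gene Sod2 7.54-fold. Iron and metal genes had 11 of 21 higher and 4 lower (8 and 9 with equal totals), with the metallothionein gene Mt2 3.78-fold higher and the ferrireductase gene Steap3 5.99-fold lower. The NADPH oxidase subunits had 5 of 8 higher and 1 lower as deposited, and 1 and 5 with equal totals. Acute-phase and formyl peptide receptor genes had 10 of 15 tested members higher and 0 lower (7 and 1 with equal totals), among them Ptx3, a secreted pattern receptor, at 49.3, 36.5 and 47.7 in controls and 5844, 5746 and 6588 with LPS. Fpr2 rose 13.2-fold and Fpr1 8.29-fold.

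Receptors of tissue position and chemotaxis were among the genes that fell most. Cxcr4, the receptor for CXCL12, stood at 7121, 7025 and 8259 in controls and 347, 371 and 327 with LPS, a log2 change of -4.42 ± 0.10 (limma adjusted p = 6.23e-16). Cx3cr1, the fractalkine receptor of tissue macrophages, stood at 1066, 829 and 888 in controls and 43.1, 37.2 and 42 with LPS. S1pr1, which guides cells out of tissue, stood at 2576, 2837 and 2903 in controls and 147, 181 and 159 with LPS. In each of the 3 the groups were separated more than 10-fold. Arrb1, the arrestin that desensitises such receptors, fell 18.7-fold, from 6003, 5779.5 and 5537 to 363, 280 and 283. C5ar2, a receptor for complement C5a, fell 15.4-fold, and the atypical chemokine receptor gene Ccrl2 rose 35.5-fold. Chemoattractant receptors had 5 of 21 called higher and 9 lower (4 and 12 with equal totals). The shares over all genes were 29.1% and 27.6% (13.7% and 53.6% with equal totals).

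Receptors for nucleotides and adenosine moved both ways, with 5 of 15 higher and 6 lower (4 and 9 with equal totals). Over all genes 29.1% were called higher and 27.6% lower (13.7% and 53.6% with equal totals). Adora2a, which raises cyclic AMP, stood at 228, 252 and 201 in controls and 3879.6, 3939 and 4078 with LPS, and Adora2b rose 9.15-fold. P2ry14 rose 13.7-fold and P2ry13 4.52-fold, while P2ry1 fell 4.38-fold. Pde4b, which breaks down cyclic AMP, rose 13.9-fold. Gpr84, a receptor for medium-chain fatty acids, rose 13.9-fold. The regulators of G-protein signalling Rgs1 and Rgs14 rose 5.25-fold and 8.54-fold in a list with 7 of 18 higher and 10 lower (4 and 10 with equal totals).

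The genes with the greatest falls had varied roles. Arhgap19, a GTPase-activating protein gene, fell 63.9-fold, and the cannabinoid receptor gene Cnr2 46.9-fold. Cd300lb, an activating receptor gene of myeloid cells, stood at 4549.6, 4402 and 4252 in controls and 196, 209.7 and 205 with LPS. Eepd1, a nuclease-family gene, stood at 1913, 1741 and 1754 in controls and 63.9, 42.8 and 56 with LPS and Ldlrad3, a receptor of the LDL receptor family, at 1174, 1292 and 1378 in controls and 37.5, 48.3 and 63.8 with LPS. In both, every LPS library lay more than 10-fold below the lowest control. Vash2 fell 37.3-fold, Pald1 34.8-fold, Spry3 36.0-fold, Galnt9 22.8-fold and the cell cycle phosphatase gene Cdc25b 22.4-fold. Lpar5, a lysophosphatidic acid receptor gene, had 3 reads with LPS and 304 in controls (control over LPS 56.8, 95% counting interval 19.2 to 277). Lrrc39 and Nat8l had 1 and 2 reads with LPS (59.4, 10.4 to 2367, and 42.3, 11.5 to 352).

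Inflammasome genes had 12 of 19 called higher and 3 lower (10 and 8 with equal totals). Nlrp3 stood at 957, 1007 and 909 in controls and 16838, 17436 and 18534 with LPS, and Casp4, which binds cytosolic LPS, at 621, 692 and 655 in controls and 11843, 13722 and 12764 with LPS. Nlrp1b, a sensor of bacterial proteases with near copies beside it, fell 16.8-fold, from 272, 275 and 268 to 12.5, 22.1 and 14. Mlkl, the effector of necroptosis, rose 13.3-fold. In the BCL2 family and caspases 13 of 22 were called higher and 6 lower (10 and 8 with equal totals). The survival genes Cflar and Bcl2a1d rose 10.3-fold and 12.5-fold, the latter 1 of several near copies. Bmf, which promotes apoptosis, fell 21.3-fold, from 429.6, 391 and 334 to 16.7, 11 and 26.4.

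Anti-inflammatory and clearance genes split as well. Il1rn, the interleukin 1 receptor antagonist, stood at 2638, 3247 and 2645 in controls and 55979, 66721 and 66024 with LPS. Tsc22d3, a glucocorticoid-induced inhibitor of inflammation, stood at 6028, 6086 and 5213 in controls and 598, 621 and 532 with LPS. The list had 9 of 22 higher and 9 lower (7 and 10 with equal totals). The apoptotic cell receptors Axl and Mertk rose 6.78-fold and 3.18-fold, in a list of scavenger receptors with 9 of 24 higher and 10 lower (6 and 15 with equal totals). Complement genes had 9 of 19 higher and 3 lower as deposited but 3 and 12 with equal totals, with factor B (Cfb) 5.39-fold higher. Fc receptors had 5 of 8 higher and 1 lower (3 and 2 with equal totals). Matrix metalloproteinases and protease inhibitors had 13 of 19 higher and 4 lower (13 and 6 with equal totals). Among them Mmp13, a collagenase gene, rose 7.49-fold, and Serpinb2, a serine protease inhibitor gene, 7.32-fold. The fibroblast list had 6 of 7 tested members called higher and 1 lower, and 2 and 1 with equal totals. Its relation to the metalloproteinase list was not tested.

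Cell cycle genes had 7 of 34 called higher and 22 lower (5 and 28 with equal totals). Rrm2, which makes deoxynucleotides, fell 3.81-fold, and Cdkn2c 5.37-fold. The cyclin gene Ccnd2 rose from 80.8, 94 and 62 to 2426, 2746 and 2958, and the cell cycle inhibitor Cdkn1a rose 11.7-fold. The circadian clock list had 1 of 19 higher and 13 lower (0 and 16 with equal totals), with Per2 4.64-fold and Npas2 10.1-fold lower. Bhlhe40 stood at 4886, 4737 and 5306 in controls and 2544, 2212 and 2644 with LPS, a fall of 2.02-fold with a log2 change of -1.01 ± 0.08 (limma adjusted p = 1.86e-08). Its paralog Bhlhe41 stood at 5111, 5371 and 5523 in controls and 4367, 3433 and 4129 with LPS, a log2 change of -0.43 ± 0.12 (limma adjusted p = 0.00465). Lyz2, whose locus drives Cre, changed by 0.34 ± 0.12 (limma adjusted p = 0.0227) as deposited and by -0.38 with equal totals.

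Chromatin and translation genes held a few large changes. The maintenance DNA methyltransferase gene Dnmt1 fell 4.11-fold, from 7546, 8741 and 7731 to 2041, 1815 and 1983, Hdac5 5.74-fold and Hdac4 3.38-fold, while the demethylase gene Kdm6b rose 3.44-fold and the acetyltransferase gene Kat2b 3.5-fold (12 of 26 higher and 6 lower, 7 and 15 with equal totals). Among cytosolic aminoacyl-tRNA synthetases, 15 of 20 higher and 3 lower as deposited but 6 and 12 with equal totals, Wars rose 7.04-fold and Rars 3.55-fold. Ribosome biogenesis had 3 of 20 higher and 11 lower (0 and 19 with equal totals). The autophagy receptor gene Sqstm1 rose 5.16-fold, and Atg7 and Ulk2 fell 2.33-fold and 2.34-fold (7 of 22 higher and 10 lower, 2 and 16 with equal totals). The stress transcription factor gene Atf4 rose 2.26-fold and the stress kinase gene Eif2ak3 fell 4.33-fold, in a list of ER genes with 7 of 21 higher and 11 lower (3 and 17 with equal totals). Hspa5, the main ER chaperone, changed by 0.93 ± 0.08 as deposited and was called lower with quantile normalization, at -0.26. Cytosolic heat shock chaperones had 6 of 14 higher and 4 lower (5 and 9 with equal totals).

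Many lists turned direction with the scaling, as the counts above show for the TLR4 adaptors, MHC class II and complement, among others. Of 50 lists, 34 had more members called higher than lower as deposited, and 16 of these had more called lower with equal totals. Several lists of housekeeping genes were among them. The nuclear-encoded respiratory chain had 17 of 35 called higher and 3 lower as deposited, 0 and 28 with equal totals and 4 and 16 with quantile normalization. Cytosolic ribosomal proteins had 13 of 33 higher and 2 lower as deposited and 0 and 20 with equal totals, and lysosomal genes 9 of 28 higher and 7 lower and then 1 and 26. No direction is therefore given for such lists. The cytokine, GTPase, costimulatory and cholesterol lists kept their direction with both scalings.

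**Figure D5:**
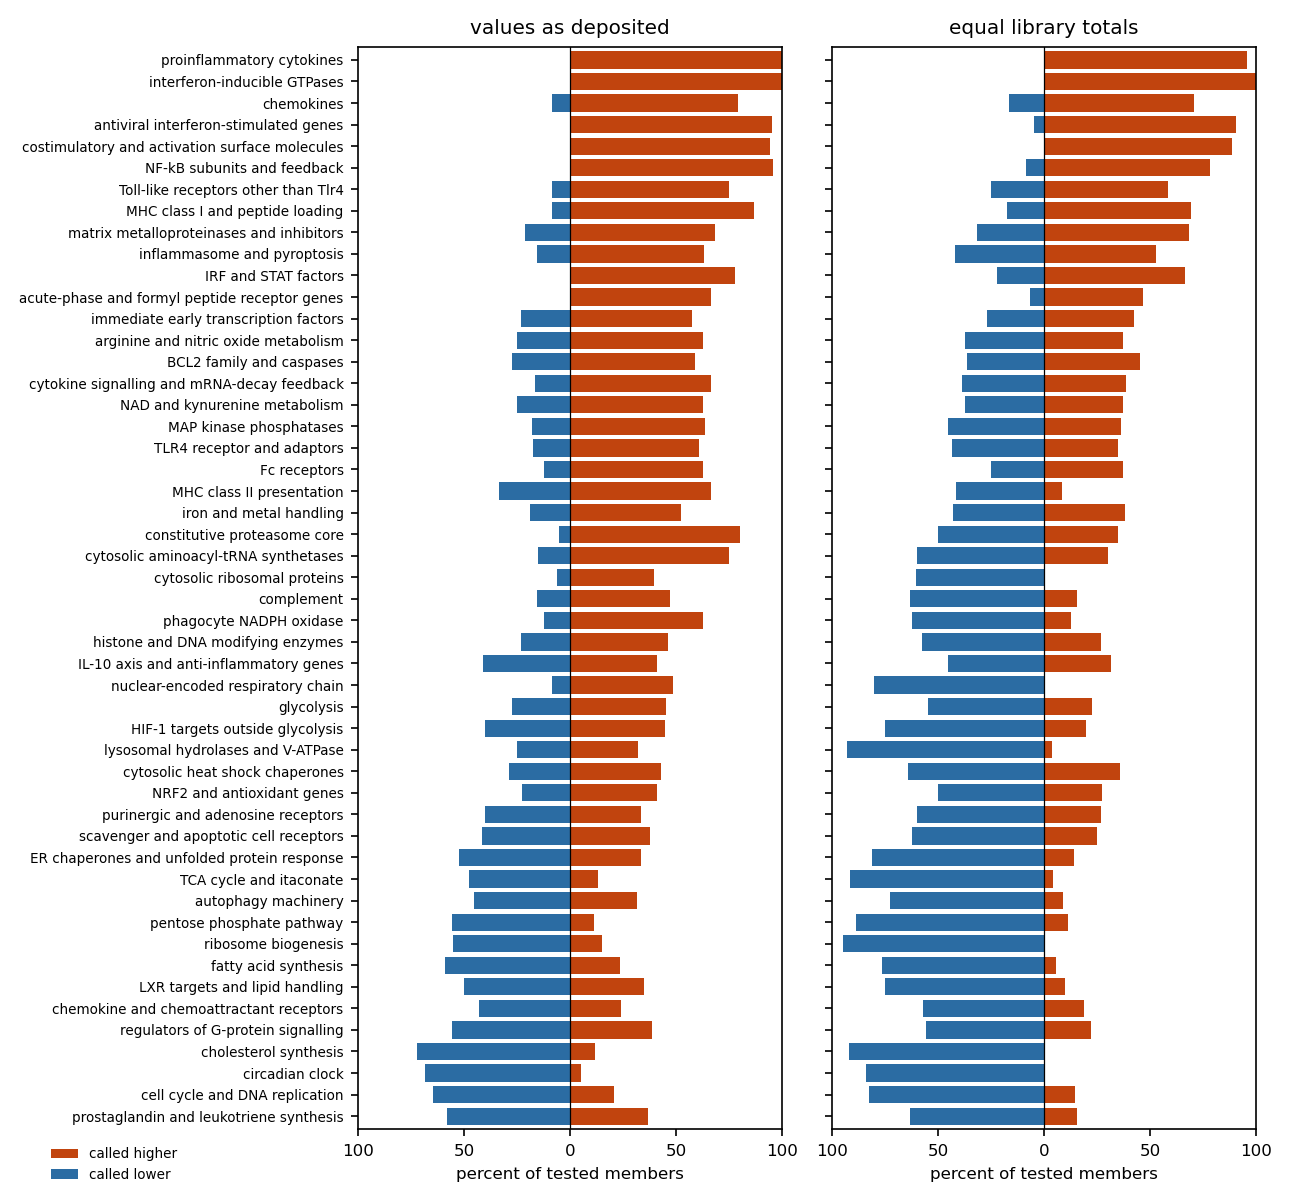
Percent of the tested members of each gene list called higher (orange, to the right) or lower (blue, to the left) with LPS, with the values as deposited on the left and equal library totals on the right, ordered by median log2 change. Over all genes these percentages are 29.1 and 27.6 as deposited and 13.7 and 53.6 with equal totals, and lists such as the respiratory chain or ribosomal proteins go from more members called higher than lower to the reverse.

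The changes moved a large part of the RNA. The 282 genes that rose at least 16-fold held 0.431% ± 0.0941 of reads in controls and 13.4% ± 0.289 with LPS (SD, n = 3), and the 823 that fell at least 4-fold went from 1.998% ± 0.0506 to 0.191% ± 0.00676. These genes were chosen on the same contrast, so the shares are a description. Between 434 and 469 genes made up 50% of the reads in controls and between 274 and 283 with LPS. Gpnmb, a glycoprotein of lysosomes, led both groups with 2.88% and 1.97% of reads. Rsad2 was next to it with LPS, at 0.0178% in controls and 1.48%. Per kilobase of exon, Rsad2 stood at a deposited value of 128136 with LPS, Acod1 at 111237, Tnf at 103440 and Gpnmb at 113533. These were not the highest genes per kilobase. Spp1 had 1.35% of reads with LPS over 1648 exon bases and Ctss 0.976% over 1358. Both lay above Rsad2 per kilobase, which has 4335 exon bases. Gpnmb itself did not pass the test as deposited (0.18 ± 0.14, limma adjusted p = 0.278) and was called lower with equal totals (-0.54). The same held for the lysosomal protease gene Ctsd (0.06 ± 0.11 and -0.67). Protein-coding genes had 4497 of 13562 called higher and 4310 lower, and long noncoding genes 281 of 1693 and 335.

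A few genes went from no reads to many. There were 152 genes at 0 in the 3 controls and above 0 in all 3 LPS libraries, and 314 with the reverse pattern. Pdzd2, a PDZ-domain gene, stood at 154, 152 and 194 with LPS, at least 207-fold higher. Plet1 stood at 73.6, 81.4 and 40.4, Klri1, a lectin-like receptor gene known from natural killer (NK) cells, at 63.9, 45.5 and 49.8, Calcr, the calcitonin receptor, at 45.9, 41.4 and 40.4, and Insrr at 44.5, 29 and 37.3. In the other direction Ankrd63 went from 34.6, 50.3 and 45.2 to 0, at least 30.1-fold lower, followed by Btbd17 (24.6, 19.5 and 11.7 in controls), Adamts15 (12.3, 12.2 and 21.8) and Klhl33 (18.5, 11.3 and 15.9). Lhx2, a homeobox gene, had 3 reads in controls and stood at 1472, 1665 and 1747 with LPS (ratio 2017, 95% counting interval 689 to 9784). Since 1 read was worth more with LPS, a value of at least 1 took 2 reads in controls and 1 read with LPS.

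Some genes usually read as markers of lymphocytes or endothelium also rose, while other markers of those cells had low values, fell or had no call. The NK marker list summed to 40.9 to 50 in controls and 1844 to 2199 with LPS, almost all of it Klrk1, the NKG2D receptor, at 13.1, 8.9 and 11.7 and then 1820, 2152 and 1978. Ncr1, Gzma, Eomes, Klre1 and Nkg7 had means of at most 5.27 in either group, and Klrb1c fell from a mean of 16.8 to 2.9. Prf1 stood at means of 5.17 and 11, with no call. Of 8 NK genes tested 1 was called higher and 1 lower. The T cell list summed to 10752 to 12592 and 10573 to 10946, mostly from Il7r, which had means of 11278 and 10202 and no call. Within it the kinase gene Lck rose from a mean of 45.5 to 374 while Cd28 fell from 434.9 to 73.4. With no call, Cd3e stood at 2.4 and 5.67, Cd3d at 11.4 and 7.8, Cd3g at 31.2 and 26.1 and Cd4 at 24.5 and 13.1. Among endothelial markers Kdr rose from 303 to 1458 and Cdh5 from 14.9 to 150.6, while Vwf fell from 654 to 457, Pecam1 stood at 11.5 and 9 and Cldn5 and Emcn at 0.

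Long noncoding RNAs changed in both directions. Ptgs2os2, which lies beside Ptgs2, stood at 17.7, 25.9 and 43.5 in controls and 1203, 1497 and 1516 with LPS. The strand setting of the counting is not given, so reads of such neighbours may not be told apart. Carlr had 2 control reads (ratio 46.4, 95% counting interval 12.2 to 393). Bach2os fell 21.2-fold from 173, 169 and 231 to 12.5, 8.3 and 6.2, the imprinted gene Peg13 fell 6.21-fold, and Mirt1 was at 0 in all LPS libraries from 6.9, 4.9 and 3.3.

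The change was compared with that in the libraries labelled Lyz2Cre-BHLHE40-Fl, which have their own 3 controls and 3 LPS libraries. The difference of the LPS changes was called for 3846 of the 17670 genes (21.8%). Of the 30 genes with the largest changes in Lyz2Cre, 19 were called, which is a description since these genes were chosen on that contrast. Il12a went from 30.5 to 11302 on average in Lyz2Cre and from 0 to 5563 in the other label, a difference of 3.91 in log2 change (limma adjusted p = 6.17e-09) that depends on the pseudocount because of the 0. Pald1 fell from 184.5 to 5.3 in Lyz2Cre and stood at 67.1 and 40.3 in the other label, a difference of 4.16 (limma adjusted p = 1.02e-06). Serpina3g, a serine protease inhibitor gene with near copies, went from 52.9 to 15582 and from 124.9 to 9543, a difference of -1.94 (limma adjusted p = 1.71e-07). Cd300lb fell from 4401 to 204 and from 8296 to 179, a difference of -1.10 (limma adjusted p = 2.64e-06).

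The other label's libraries differed in more than this. Bhlhe40 stood at 8046, 7617 and 8016 in their controls, above those of Lyz2Cre, and at 1956, 2415 and 2327 with LPS, so its RNA was not lower in those controls, and a value for the whole gene would not show the loss of single exons. Mesothelial markers summed to 2185 to 2963 in their controls and 1474 to 1809 with LPS, against at most 27.8 in any Lyz2Cre library. Macrophage markers summed to 63110 to 71541 and 76630 to 80878, lower than in Lyz2Cre. In their controls the neutrophil list summed to 360 to 565 against 23526 to 27989 in Lyz2Cre controls. The platelet list summed to 98.5 to 148 against 4156 to 6337, and the T cell list to 30047 to 37262 against 10752 to 12592. Among single genes the control mean of Gata6 was 333 against 24.7 in Lyz2Cre, and that of Lyz2 was 170 against 766. The part of these differences in the comparison of LPS changes was not tested.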

How the data were processed

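Per the labels' protocols, libraries for Illumina sequencing were made from column-purified total RNA of peritoneal macrophages. The submitters' processing notes list mm10 as the build and name Cufflinks, Cuffdiff and STAR, with neither versions nor the order of use. Not given in the sources used here are the read counter, its strand setting, and how much LPS was used and for how long. The values the authors deposited are a signal: each gene's whole reads after division by the library's own factor, with 1 decimal kept, as inferred from the values alone. Within a tolerance of 0.06, 100% of values in each library were whole multiples of 1 step. Reads recovered in this way totalled 24494178 to 29354869 per Lyz2Cre library. GENCODE M21 holds 53360 of the 53465 identifiers, and 220 entries have a symbol that is not unique.

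The 17670 genes that reached a value of 1 in 3 or more of the 6 Lyz2Cre libraries were tested without rescaling. The model was limma 3.58.1 with a mean-variance trend (R 4.3.3), with log2(value + 1) as the response, the 4 groups of 3 libraries as terms and a common variance. P-values were adjusted over all 17670 genes by Benjamini-Hochberg, and a gene was called below 0.05. The pseudocount of 1 makes log2 changes of low genes too small. Folds are ratios of mean deposited values. Against a group at 0 they are bounds from 3 reads over the group, and with 1 to 3 reads they carry exact 95% Poisson intervals, both covering counting error only. On simulated reads with 200 changed genes (17135 genes tested, 5 simulations) the test found 59.2% of the genes changed 2-fold and 74.4% of those changed 4-fold, and 6.17% of its calls were false. The real contrast calls far more genes, so these shares need not hold there.

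Replicates differed by more than sampling noise (chi-square per degree of freedom 7.35 to 36.4), so none was counted as a repeat of another. Alternatives were equal library totals, median-of-ratios scaling, quantile normalization, a pseudocount of 0.1 or 5, a filter of 5 or none, the Lyz2Cre libraries alone, the replicate number as a block, edgeR 4.0.16 on the recovered reads, each library left out in turn, and a log2 change of at least 1. Promoter windows are those of RefSeq (GRCm38.p6) matched by symbol.

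The members and gene lists were chosen with earlier results of these data known. Genes were named by these rules, and not every eligible gene is named. Up to 15 genes per direction had the largest changes among those called with both scalings, with no overlap between groups and a mean of at least 5 in 1 group. Each list gave the 6 members that changed most, as well as members whose call turned with equal totals. Also eligible were the 10 genes with the largest read shares in each group, up to 6 genes per direction at 0 in 1 group, 6 long noncoding RNAs per direction, Bhlhe40, Bhlhe41 and Lyz2, and the genes of the 6 longest runs. Left out were gene models without a name, clones, pseudogenes, small RNAs, and histone, mitochondrial, immunoglobulin and T cell receptor genes. Cell type markers are named as a check of the cells.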

Additional observations from a re-analysis of the deposited data

Results flagged for a closer look

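For 19 of the 30 genes with the largest LPS changes in the Lyz2Cre libraries, the change differed from that in the libraries labelled Lyz2Cre-BHLHE40-Fl by the limma test of the difference itself. Over all genes the difference was called for 3846 of 17670 (21.8%). The 30 genes were chosen on the Lyz2Cre change, which is part of that difference, so their count is a description. The values below are the log2 change in the Lyz2Cre-BHLHE40-Fl libraries minus that in the Lyz2Cre libraries, so a value above 0 is a more positive change in the former. Among cytokine and surface genes that rose, the difference was 1.186 for Cxcl10, 1.627 for Il6, 1.355 for Il27, 3.905 for Il12a and 1.28 for Cd69. For the interferon-stimulated genes Ifit1bl1 and Cmpk2 it was 3.124 and 2.179. The mean with LPS was nonetheless lower in the other label for all of these genes but Cxcl10. Their control means were all lower there too. Means with LPS in Lyz2Cre and the other label were 71584 and 27787 for Il6 and 45749 and 19813 for Cd69. Those of Cxcl10 were 114828 and 138527. Control means were 17.1 and 1.23 for Il6 and 93.9 and 15.9 for Cd69. The rise was smaller in the other label for Ifnb1 (-2.105, a call lost with equal library totals), the Notch ligand gene Dll1 (-2.579), Serpina3g (-1.936) and Angpt1 (-2.911).

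Among genes that fell, the fall was smaller in the other label for Ankrd63 (2.817), Eepd1 (1.374), Spry3 (1.784), Pald1 (4.159) and Ldlrad3 (2.625). It was larger for Cnr2 (-1.23), Galnt9 (-2.283) and Cd300lb (-1.104). The starting levels differed between the labels, with Ldlrad3 at a mean of 1281 in Lyz2Cre controls and 467 in those of the other label, and Cmpk2 at 1198 and 155. Il12a, Ifit1bl1 and Ifnb1 were at 0 in the other label's controls and Ankrd63 at 0 in all LPS libraries, so their differences depend on the pseudocount. The same holds for Il6 and Galnt9, at means of 1.23 and 1.03 in the other label's controls and LPS libraries, and for Dll1, at 0.5 in Lyz2Cre controls. Mesothelial markers were present only in the other label's libraries at sums of 1474 or more, and their part in these differences was not tested.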

How the results depend on the processing

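With equal library totals the genes called higher went from 5146 to 2423 and those called lower from 4881 to 9464. This follows by construction of the scaling, which moves the median of all genes. Median-of-ratios factors computed on the deposited values were 0.992 to 1.004 in the 12 libraries. The deposited scale thus sets the median log2 change, -0.00139, by construction too, and the median-of-ratios alternative nearly repeats it. With a minimum log2 change of 1 the counts were 2758 and 2563, and 1449 for the difference between genotype labels against 3846. The other alternatives stayed within 1.5 times: 4372 to 5194 genes higher and 4677 to 5649 lower, edgeR on the recovered reads giving 4474 and 5425. Leaving out each Lyz2Cre library in turn gave 4803 to 4936 higher and 4499 to 4602 lower, and leaving out each of the 12 gave 3269 to 4057 for the difference between labels. For the latter a fit of the Lyz2Cre libraries alone could not be made. Of the 211 genes named for their response, 5 turned direction with a scaling: B2m to -0.26 (equal totals) and -0.57 (quantile), Hspa5 to -0.26 (quantile), Gpnmb to -0.54 (equal totals), Ctsd to -0.67 (both) and Lyz2 to -0.38 (equal totals). The naming rules favoured stable genes, since they took calls made with both scalings or the largest changes. Over all genes 1084 of the 5146 higher calls became lower with equal totals and 1639 were lost. The macrophage marker Adgre1 turned from 0.34 to -0.39 (equal totals) and -0.84 (quantile). Lyz2 also lost its call with quantile normalization, with edgeR and without control replicate 2, LPS replicate 1 or LPS replicate 3. With the replicate block 5069 genes were called higher, 4801 lower and 3558 for the difference, and none of the 211 named genes changed its call. Same-numbered control and LPS libraries did not deviate together (r = -0.030, -0.021 and 0.008 across genes), so the numbers are not taken to pair them. Among genes with a mean value under 10 only 22.3% were called, and there depth limits what could be seen.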
